A study of Mus musculus with 12 samples.

Results

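E0771 tumors collected 6 days after a second dose of cyclophosphamide (CPA) were compared with E0771 tumors collected 6 days after a first dose, gene by gene across the whole deposited table. The comparison takes 4 of the 12 RNA pools of the series, 2 for day 12 (2 cycles) and 2 for day 6 (1 cycle). E0771 is a mouse mammary carcinoma line, and its cells were grown in female mice (C57/BL6N), in the fourth mammary fat pad. CPA is a DNA-alkylating prodrug that the liver activates. Per the labels the day 6 mice received 1 intraperitoneal dose of 130 mg/kg on day 0. The day 12 mice received the same dose on day 0 and again on day 6. The study also treated E0771 tumors at other doses, and its figure of E0771 growth under repeated CPA states a lower dose. The study's text also says that the dose was lowered from 130 mg/kg for its CD8 T cell depletion experiments. For these pools the dose given here is that of the labels. Mice were 11 weeks old in the day 6 group and 12 weeks old in the day 12 group, so number of cycles, time on study and age cannot be told apart. The vehicle, day 1, day 2 and day 3 groups, from mice of 9 to 10 weeks, are set beside the 2 groups only to show where their values lie. The title of 1 of the 2 day 1 pools names CPA while its treatment label names vehicle, which touches only the day 1 values.

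Each pool combined RNA from several tumors, and each tumor holds E0771 cells together with the host's own immune, vascular, stromal and fat pad cells. The deposited table gives 1 value per group in FPKM (sequenced fragments per unit of gene length and of library depth), made by the authors from the 2 pools. The spread between pools is therefore lacking, and every difference below is a description of 4 pools with no test. Differences are on the scale log2((day 12 FPKM + 0.1)/(day 6 FPKM + 0.1)), where positive values are higher on day 12. A gene was called higher or lower when its values were at least 2-fold apart on that scale. In bulk tumor RNA, fewer cells of a type and less RNA per cell cannot be told apart, and this holds for every cell type marker below.

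CPA is known to kill dividing tumor cells and, when given at spaced intervals, to draw innate and adaptive immune cells into tumors. DNA damage can set off type I interferon signaling, which turns on interferon-stimulated genes (ISGs) such as Mx1 and Rsad2. Between doses the marrow recovers and releases myeloid cells and red blood cells. An excised mammary tumor borders the fat pad, with its adipocytes, ducts, vessels and fibroblasts.

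Of 24197 genes in the table, 10649 had a mean FPKM of at least 1 over the 6 groups and were examined. Of these, 674 (6.33%) were higher and 953 (8.95%) were lower on day 12 than on day 6. Counts of called members in every list below are to be read beside these shares. The median examined gene was at a log2 difference of -0.29, so a gene or list near that value moved with the bulk of the transcriptome, and differences below are read against it. Of all calls, 41.4% were higher, a share that became 74.4% when the median gene was set to 0, 69.9% when this was done within 5 equal bins of transcript length, 56.9% with a pseudocount of 1 FPKM and 31.2% when totals were equalized without the fat and erythroid lists. The extremes were uneven. At 4-fold, 226 genes were higher and 45 lower, and 41 of those 45 were short microRNA or small nucleolar RNA rows, which a polyA library does not measure as mature molecules. At 8-fold, 112 genes were higher and 14 lower. Of the 674 higher genes, 174 averaged less than 1 FPKM over the other 5 groups and so passed the minimum only through day 12. At 4-fold this held for 107 of the 226 higher genes and for none of the 45 lower ones. Of the 226, 8 were small RNA rows. The minimum thus had a part in the uneven extremes. Day 12 held the highest of the 6 group values in 665 of the 674 higher genes and the lowest in 932 of the 953 lower genes. Among all genes examined these shares were 24.2% and 55.8%. The calls themselves placed day 12 above or below day 6, so the counts among called genes were in part fixed by the calling rule.

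**Figure D1:**
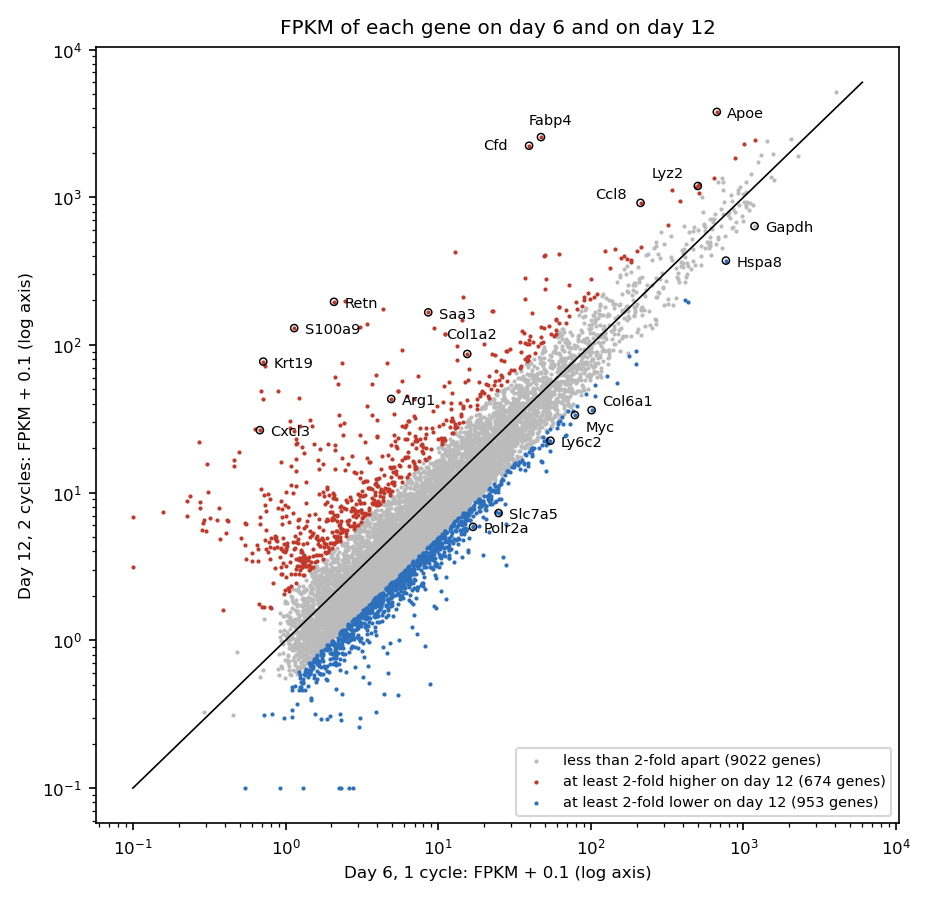
FPKM + 0.1 of each examined gene on day 6 (horizontal log axis) and day 12 (vertical log axis), 1 point per gene, with the line of equal values. Red marks the 674 genes at least 2-fold higher and blue the 953 at least 2-fold lower on day 12; the red points reach far from the line while the blue points lie in a dense band below it.

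Depth may have differed between the pools. Low values, times gene span, fall most often on 2 steps per group. Scaled to a span of 1 kb these were 0.0140 and 0.0267 FPKM on day 12, 1.91-fold apart, and 0.0114 and 0.0118 FPKM on day 6, 1.03-fold apart. If each step is 1 read in 1 of the pools, the day 12 pools differed in depth, but the depth so implied is larger than the average the study's methods state for tumor libraries, so this reading is uncertain. The difference also varied with transcript length. The median log2 difference was 0.09 in the bin of genes with the shortest transcripts and -0.50 in the bin with the longest, with -0.17, -0.34 and -0.38 between them. Day 6 against vehicle had medians of 0.01 to 0.04 in the same bins. Among the shortest bin 15.2% of genes were higher and 7.71% lower, and among the longest 1.98% were higher and 13.1% lower. The part of transcript length in the calls was not tested further. Counts with each bin set to its own median, called recentring within length bins, are given beside the lists where they matter. Summed over all rows, FPKM came to 255868 on day 6 and 280781 on day 12.

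**Figure D2:**
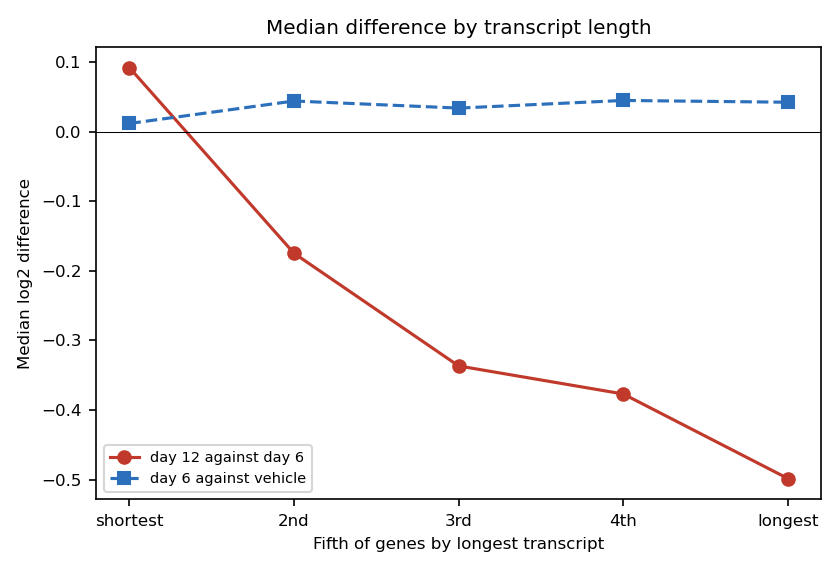
Median log2 difference (vertical axis) of examined genes in 5 equal groups by longest annotated transcript (horizontal axis), for day 12 against day 6 (circles) and day 6 against vehicle (squares). The first goes from 0.09 in the shortest to -0.50 in the longest bin, while the second lies between 0.01 and 0.04.

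The largest differences upward, among genes at 5 FPKM or more on day 6 or day 12, came from fat, keratin and neutrophil genes. S100a9, which encodes a subunit of the neutrophil protein calprotectin, had the largest log2 difference, 6.83, and stood at 0.319, 0.167, 0.132, 0.200, 1.04 and 129.9 FPKM over the 6 groups, in the order vehicle and then days 1, 2, 3, 6 and 12. Its row spans chr3:90496551-90499643 in mm9, and its 4 earlier groups all lay below day 6. Krt19, a keratin of simple epithelia, was at 0.952, 0.594, 0.862, 0.594, 0.615 and 77.0 FPKM in the same order (log2 6.75, chr11:100002125-100007233 in mm9), with no earlier group above 1 FPKM. Adig, a small adipocyte protein, and Retn, the adipocyte hormone resistin, were at 0.633 and 71.5 FPKM and at 1.98 and 196 FPKM on days 6 and 12 (log2 6.61 and 6.56). Retnlg, a resistin-like gene of neutrophils, was at 0.170 and 21.8 FPKM (log2 6.34), and Stfa2l1, a stefin of the same cells, at 0.0571 and 7.32 FPKM (log2 5.56). Thrsp, a nuclear regulator of fatty acid synthesis, was at 2.36 and 198 FPKM (log2 6.34). G0s2, an inhibitor of lipid breakdown found in fat and in neutrophils, was at 0.596 and 48.5 FPKM (log2 6.13). The remaining genes among the 14 largest were Cox8b, Cfd, Ces1d, Fabp4 and Arxes2, at log2 5.69 to 5.91, and Plac9a, which was listed at 0 on day 6 and at 6.73 FPKM on day 12 and has a near-identical neighbor, Plac9b. Stfa genes are likewise near copies of each other, so which copy gave the reads is uncertain. Among the 14 largest, all but Cfd and Fabp4 were below 5 FPKM on day 6 and so were kept only through day 12. Their sizes depend on the pseudocount. With 1 FPKM, the log2 differences of S100a9, Retnlg and Stfa2l1 were 6.00, 4.29 and 2.98.

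White adipocyte markers were the list farthest from the median gene. Of 20 members, 19 were examined and all 19 were higher on day 12, 6 of them having passed the minimum only through day 12, with a median log2 difference of 4.56 over the 20 members beside -0.29 over all examined genes. Medians of lists are over all members found in the table, whether examined or not. Fabp4, the fatty acid carrier of adipocytes, was at 39.2, 27.2, 44.1, 36.7, 47.0 and 2553 FPKM from vehicle to day 12 (chr3:10204342-10208576 in mm9) and was the third most abundant row of the day 12 table. Cfd, the adipocyte protease adipsin, was at 29.1, 19.3, 33.5, 19.3, 39.3 and 2232 FPKM over the same groups. The first 5 groups of both genes lay in a narrow range that day 12 exceeded many times over. Adipoq, which encodes adiponectin, was at 3.33 and 138 FPKM on days 6 and 12, and Lep, which encodes leptin, at 0.176 and 7.82 FPKM (log2 5.33 and 4.84). Adrb3, the beta-3 adrenergic receptor, was at 0.362 and 16.5 FPKM and Dgat2, which completes triglyceride synthesis, at 1.13 and 43.4 FPKM (log2 5.17 and 5.14). The smallest difference among the 19 was that of Pparg, the adipocyte master regulator that other cells also express, at 2.70 and 7.60 FPKM (log2 1.46). Summed over the list, adipocyte markers held 0.0425%, 0.0369%, 0.0466%, 0.0400%, 0.0745% and 2.22% of all FPKM from vehicle to day 12. None of the 20 was listed at 0 in either group. The part of fat pad tissue in the other results was not tested.

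Brown and beige fat genes followed the white fat markers only in part. Ucp1, the uncoupling protein that defines thermogenic fat, was at 0.0285 and 0.465 FPKM on days 6 and 12, its coactivator gene Ppargc1a at 0.00903 and 0.136 FPKM and the beige fat factor Prdm16 at 0.0632 and 0.158 FPKM, all under 1 FPKM in both groups. Cox8b, a respiratory chain subunit of fat and muscle, was at 0.616 and 43.0 FPKM, and Cidea, a lipid droplet protein, at 0.192 and 6.43 FPKM (log2 5.91 and 4.48). Only 3 of the 10 members, Cox8b, Cidea and Cox7a1, were examined, and these 3 were higher on day 12, the first 2 having passed the minimum only through day 12.

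Fatty acid and sterol synthesis, which share the SREBP family of regulators, are given together. Counts in these lists are to be read beside the 6.33% higher and 8.95% lower of all examined genes. Of 14 fatty acid synthesis genes, 12 were examined, 6 were higher and 1 lower, with a median of 1.19. Scd1, the desaturase abundant in adipocytes, was at 13.2, 12.1, 10.9, 10.6, 14.4 and 213 FPKM from vehicle to day 12 (log2 3.87), whereas its paralog Scd2 was at 75.2, 75.8, 62.5, 60.8, 53.9 and 34.1 FPKM (log2 -0.66), its lowest level of the course on day 12. Malic enzyme Me1 was at 5.71 and 57.1 FPKM (log2 3.30), and Mlxipl, a carbohydrate-sensing transcription factor below the minimum, at 0.0703 and 2.40 FPKM (log2 3.88). Fads2, the first desaturase of polyunsaturated fatty acid synthesis, was the 1 lower gene, at 2.45 and 0.867 FPKM (log2 -1.40). In the fatty acid oxidation list 8 of 12 members were examined, 1 was higher and none lower (median 0.60). That gene was Acadm, a mitochondrial dehydrogenase of medium-chain fatty acids, at 12.4 and 30.5 FPKM (log2 1.29). Of 24 sterol synthesis and uptake genes, 23 were examined, none was higher and 4 were lower, with a median of -0.47, that is -0.18 from the median gene. Srebf2, the regulator of the pathway, was at 10.9 and 4.56 FPKM (log2 -1.24), and Sqle, which oxidizes squalene, at 10.0 and 4.87 FPKM (log2 -1.03). At the other end Insig1, which holds SREBP in check, was at 3.58 and 7.13 FPKM (log2 0.97). After recentring on the median gene 2 sterol genes were higher and 1 lower, and within length bins 1 was higher and 1 lower. Fdps, which makes farnesyl pyrophosphate, stood at 78.0, 65.2, 49.2, 30.4, 20.9 and 21.3 FPKM from vehicle to day 12, so that its day 6 and day 12 values were nearly equal and both below all earlier groups. Hmgcs1, which acts early in the pathway in every cell, was listed at 0 in all 6 groups, and this may be a failed estimate.

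**Figure D3:**
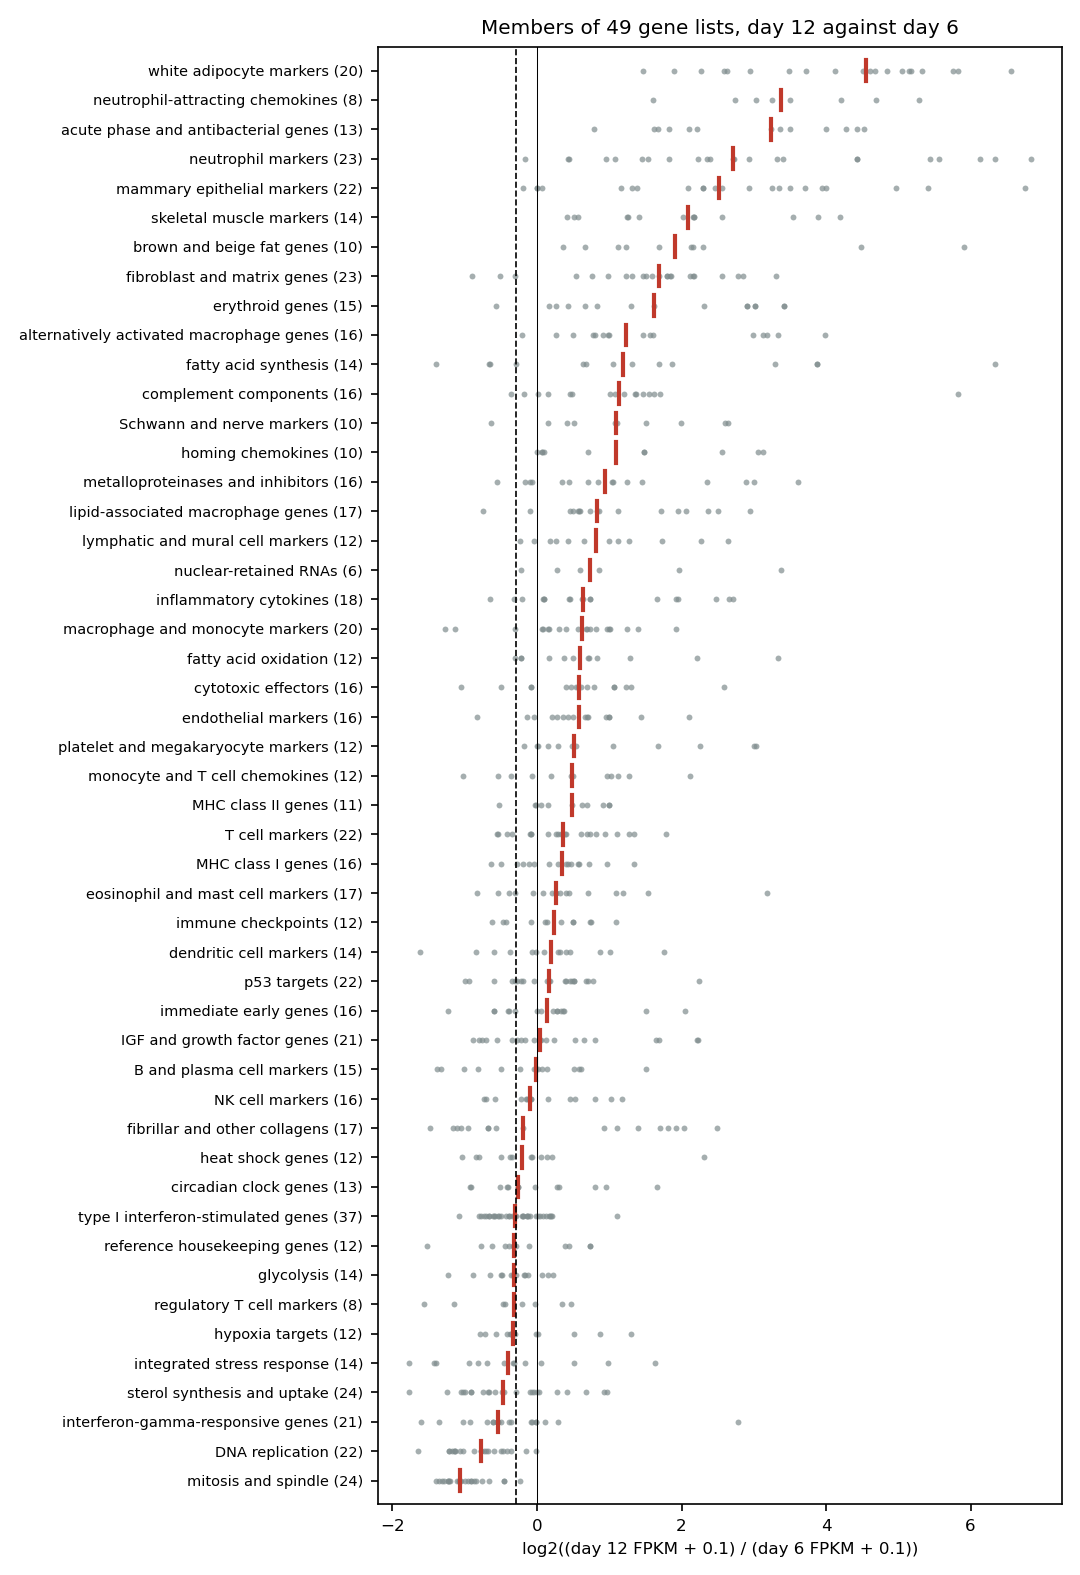
Log2 difference between day 12 and day 6 (horizontal axis) of each member found of 49 gene lists (1 row per list, number of members in brackets), with 1 gray point per gene and a red bar at the list's median. The dashed line is the median of all examined genes, -0.29; white adipocyte markers lie farthest to the right (median 4.56) and mitosis genes farthest to the left (-1.06).

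Mammary epithelial markers were near absent through day 6 except for 1 keratin. Krt8, abundant in every group, was at 125, 112, 137, 114, 94.2 and 82.2 FPKM from vehicle to day 12 (log2 -0.20). Its usual partner Krt18 was at 0.518, 0.426, 0.792, 0.417, 0.534 and 26.9 FPKM (log2 5.41), so that only on day 12 did it come within an order of magnitude of Krt8. Krt7, a ductal keratin, was at 0.177 and 8.58 FPKM, Epcam, an epithelial adhesion molecule, at 0.317 and 6.30 FPKM and Krt14, a basal keratin, at 0.308 and 5.23 FPKM (log2 4.97, 3.94 and 3.71). Cldn4 and Cldn3, tight junction proteins, were at 0.219 and 5.01 FPKM and 0.139 and 2.60 FPKM. The milk protein genes Csn2 and Wap were listed at 0 in both groups. Of 22 members, 6 were examined and 5 of them were higher, each of the 5 having passed the minimum only through day 12. The list's median over all 22 was 2.51, and its summed FPKM was 97.9 on day 6 and 227 on day 12.

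Markers of skeletal muscle, nerve, red cells and platelets were examined in small numbers. Of 14 skeletal muscle markers 8 were examined and 7 were higher (median 2.09), with Myl1, a fast myosin light chain, at 0.786, 0.632, 0.144, 0.989, 0.201 and 5.39 FPKM from vehicle to day 12 (log2 4.19). Of the 8, 2 had passed the minimum only through day 12, Myl1 among them. Day 12 was not the highest group in every muscle gene, since Tnnt3, a fast troponin, reached 1.88 FPKM on day 3 against 1.67 FPKM on day 12. The list's summed FPKM was 15.7, 10.8, 6.24, 20.3, 8.01 and 43.6 over the 6 groups. Of 10 Schwann and nerve markers only the myelin gene Pmp22, which other cells express too, was examined, at 2.47 and 15.5 FPKM (log2 2.60), and below the minimum Sox10, the defining factor of Schwann cells, was at 0.0255 and 0.259 FPKM and the myelin gene Prx at 0.962 and 0.582 FPKM. Of 15 erythroid genes found, 7 were examined and 6, all globin genes, were higher (median 1.62). The list's summed FPKM was 144, 42.3, 21.6, 20.6, 170.02 and 1281 over the 6 groups. Hbb-b1, a beta globin gene, was at 44.5, 7.15, 1.69, 1.25, 50.0 and 407 FPKM over the groups (log2 3.02), and Alas2, which starts heme synthesis in red cell precursors, at 0.315, 0.0332, 0, 0.0117, 0.804 and 4.37 FPKM (log2 2.31). Globin genes share sequence and in part share values in the table, so single copies are uncertain. Tfrc, the transferrin receptor that dividing cells also carry, went the other way at 13.0 and 8.71 FPKM (log2 -0.57). Among 12 platelet genes, 3 were examined and 2 were higher, with the chemokine Pf4 at 50.3 and 241 FPKM and Ppbp at 0.846 and 7.61 FPKM (log2 2.26 and 3.03). The remaining examined gene, Itgb3, was at 6.14 and 5.43 FPKM (log2 -0.17). Of the 3, Ppbp passed the minimum only through day 12. Platelet receptors below the minimum ranged from Gp6, listed at 0 on both days, through Gp1ba and Gp9 at 0.00433 and 0.00513 FPKM and 0.0282 and 0.0863 FPKM, to Gp1bb at 0.0614 and 0.234 FPKM, Gp5 at 0.106 and 0.128 FPKM, Treml1 at 0.0561 and 0.396 FPKM and Clec1b at 0.246 and 2.68 FPKM (log2 1.05, 0.15, 1.67 and 3.00 for the last 4).

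**Figure D4:**
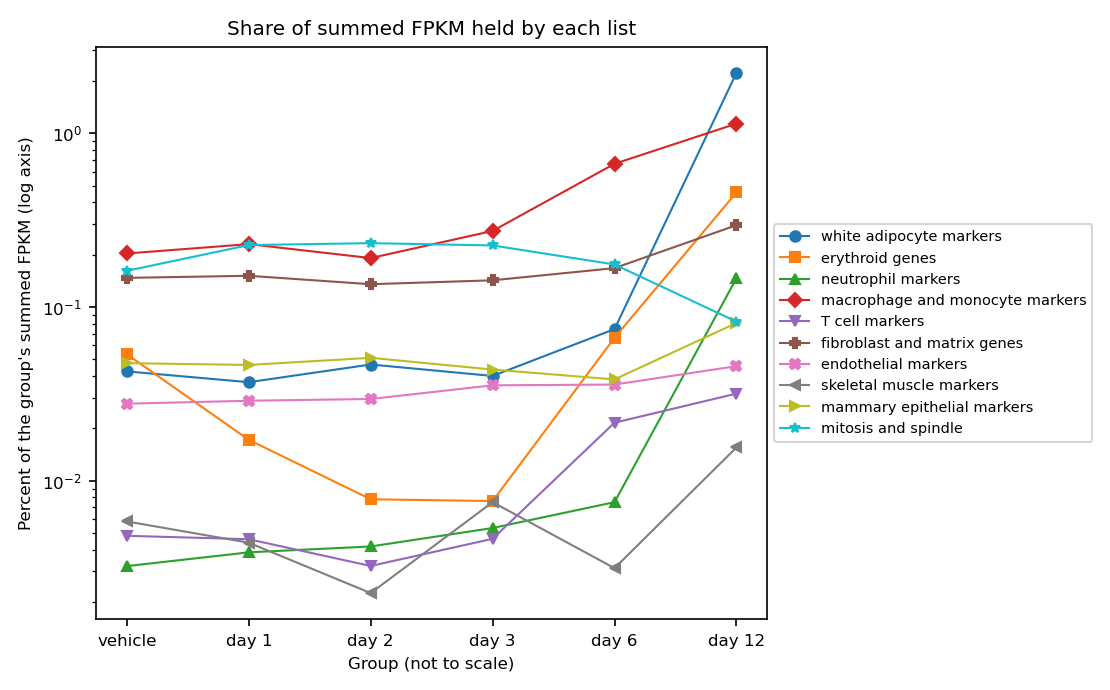
Percent of each group's summed FPKM (vertical log axis) held by 10 gene lists in the 6 groups (horizontal axis, not to scale). White adipocyte markers went from 0.0745% on day 6 to 2.22% on day 12, erythroid genes from 0.0664% to 0.456%, neutrophil markers from 0.00751% to 0.146%, and mitosis genes from 0.176% to 0.0823%.

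Neutrophil genes were low through day 6 and high on day 12. Of 23 neutrophil markers found, 11 were examined and 7 were higher on day 12, 6 of them having passed the minimum only through day 12, and the median over the 23 was 2.72. S100a8, the partner of S100a9 in calprotectin, was at 1.06, 1.01, 1.78, 2.03, 2.98 and 133 FPKM from vehicle to day 12 (log2 5.44). Lcn2, an iron-scavenging granule protein that epithelia also make, was at 0.523, 0.579, 0.782, 1.68, 1.36 and 31.1 FPKM (log2 4.42). Granule genes of immature neutrophils were at lower levels, with Camp at 0.0578 and 3.29 FPKM and Ngp at 0.308 and 4.23 FPKM, as was the chemokine receptor gene Cxcr2 at 0.126 and 1.09 FPKM. Csf3r, the G-CSF receptor of mature neutrophils, was at 4.48 and 6.06 FPKM (log2 0.43), and Padi4, a histone-modifying enzyme of neutrophils, was at 0.802 and 0.706 FPKM (log2 -0.16). Primary granule genes Mpo and Elane were under 0.5 FPKM in both groups. The list's summed FPKM was 19.2 on day 6 and 410.3 on day 12.

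Ligands that attract and mobilize neutrophils moved in the same direction. Of the 8 listed, 4 were examined and all 4 were higher, having passed the minimum only through day 12, with a median of 3.38 over the 8. Cxcl3 was at 0.164, 0.0761, 0.137, 0.161, 0.579 and 26.4 FPKM from vehicle to day 12, Cxcl2 at 0.317, 0.302, 0.382, 0.765, 1.06 and 21.4 FPKM and Cxcl5 at 0.0334, 0.0725, 0.0743, 0.0708, 0.105 and 5.20 FPKM (log2 5.29, 4.21 and 4.69). These 3 CXC chemokines signal through Cxcr2, and Cxcl5 was below the minimum. Csf3, which encodes G-CSF, was at 0.0849 and 1.13 FPKM (log2 2.74), and Il17a, a T cell cytokine that induces such chemokines, was listed at 0 in the first 5 groups and at 0.203 FPKM on day 12. Among 18 inflammatory cytokine genes 11 were examined, 1 of the 11 having passed the minimum only through day 12, and 2 were higher and none lower (median 0.63). Those 2 were Nos2, which makes nitric oxide, at 1.504 and 4.97 FPKM and Il1b, the pyrogenic cytokine interleukin-1 beta, at 8.91, 7.94, 6.23, 7.42, 12.2 and 46.9 FPKM from vehicle to day 12 (log2 1.66 and 1.93). Below the minimum, the cytokine gene Il6 was at 0.205 and 1.89 FPKM and Ptgs2, the inducible cyclooxygenase, at 0.189 and 1.72 FPKM (log2 2.71 and 2.65), whereas Tnf was nearly level at 3.49 and 3.73 FPKM (log2 0.10).

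Acute phase and antibacterial genes were higher in every examined member. Of 13 listed, 11 were examined and all 11 were higher on day 12, 5 of them having passed the minimum only through day 12, with a median of 3.24 over the 13. Saa3, the serum amyloid A made outside the liver, was at 6.38, 6.16, 10.51, 16.8, 8.51 and 166 FPKM from vehicle to day 12 (log2 4.27). Hp, which encodes haptoglobin and is made by fat and neutrophils as well as liver, was at 14.8, 9.23, 12.2, 11.0, 14.3 and 148 FPKM (log2 3.36). Wfdc21 and Saa1 were at 1.04 and 26.2 FPKM and at 1.18 and 20.3 FPKM (log2 4.53 for the former). Wfdc17, an antimicrobial gene of activated macrophages and the most abundant member, was at 28.7, 27.1, 37.7, 46.1, 71.3 and 253 FPKM (log2 1.82). Several of these genes belong to more than 1 cell type, and the adipocyte and neutrophil lists moved with them, and the part of either in these values was not tested.

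Promoters of these genes and of the neutrophil markers were read from RefSeq (build GRCm38.p6). All 11 examined acute phase genes and 7 of 11 examined neutrophil markers were higher on day 12. The letters TTGCNNAA, searched on both strands, are a core of sites for C/EBP proteins, transcription factors of acute phase and granulocyte genes. They occurred within 250 bases before the start in 6 of the 9 acute phase promoters found and in 8 of the 22 neutrophil marker promoters, against 9.56% of 32851 mouse promoters. Lcn2 counts in both lists, and Ly6g, which held a match, was not found among the measured genes. The neutrophil genes S100a8, G0s2 and Stfa2l1, which also had large differences, held no match. Stretches of 60 bases that hold a match are printed for 4 genes with large differences, 5′ to 3′ on the gene's strand, with the match in capitals.
Saa3 (chr7:46715742-46715801, minus strand): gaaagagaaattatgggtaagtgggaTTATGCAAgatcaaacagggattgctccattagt
Lcn2 (chr2:32387922-32387981, minus strand): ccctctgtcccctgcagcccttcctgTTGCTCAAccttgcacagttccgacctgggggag
S100a9 (chr3:90695912-90695971, minus strand): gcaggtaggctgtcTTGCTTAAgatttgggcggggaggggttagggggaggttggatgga
Retnlg (chr16:48872358-48872417, plus strand): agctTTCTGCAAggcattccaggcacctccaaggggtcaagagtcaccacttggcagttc
A match describes letters in this window and not a bound site.

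Macrophage and monocyte markers had a median above that of all genes but differed among themselves. Of 20 macrophage and monocyte markers, 18 were examined, 4 were higher and 2 lower, with a median of 0.62. Among all examined genes 6.33% were higher and 8.95% lower, and 2 lower of 18 is near the latter share. Lyz2, the myeloid lysozyme, was at 161, 159.9, 119, 200.0, 502 and 1192 FPKM from vehicle to day 12 (log2 1.25), and Cd14, the endotoxin co-receptor, at 3.53, 3.54, 2.39, 2.95, 6.00 and 23.03 FPKM (log2 1.92). The 2 lower genes were Ly6c2, which marks inflammatory monocytes, at 13.5, 9.33, 7.86, 27.03, 54.3 and 22.4 FPKM (log2 -1.27), and Siglec1, a sialic acid receptor of resident macrophages that interferon induces, at 1.497, 2.65, 1.82, 2.20, 5.401 and 2.41 FPKM (log2 -1.13). Both had their highest value of the course on day 6. The general markers Cd68 and Itgam were at 67.5 and 55.0 FPKM and 13.1 and 13.8 FPKM (log2 -0.30 and 0.07). The complement gene C1qa, a product of tissue macrophages, was at 319 and 646 FPKM (log2 1.02).

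Genes of lipid-laden macrophages had no lower member. Of 17 such genes, all examined, 7 were higher and none lower (median 0.83). Apoe, the lipid carrier that was the second most abundant row on day 12, was at 197, 203, 190.1, 232, 669 and 3781 FPKM from vehicle to day 12 (log2 2.50). Trem2, a lipid-sensing receptor of macrophages, was at 8.60, 7.47, 6.07, 7.81, 19.7 and 102 FPKM (log2 2.37). Lpl, a lipase that adipocytes share, was at 36.9 and 284 FPKM (log2 2.94), and Abca1, a cholesterol exporter, at 4.18 and 17.7 FPKM (log2 2.06). Ctsk and Ctsd, lysosomal cathepsins, were at 4.57 and 18.0 FPKM and 340.0 and 1118 FPKM (log2 1.95 and 1.72). Cd9, a tetraspanin that E0771 tumors expressed at high level throughout, was at 226 and 134 FPKM (log2 -0.75).

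Alternatively activated macrophage genes had a larger median still. Of 16 listed, 11 were examined, 6 were higher and none lower, with a median of 1.23. Arg1, which consumes arginine, was at 1.59, 2.17, 1.01, 1.49, 4.82 and 43.0 FPKM from vehicle to day 12 (log2 3.13), and Retnla, a resistin-like protein induced by interleukin-4, at 3.798, 2.57, 2.47, 0.720, 3.81 and 62.1 FPKM (log2 3.99). Ear2, a ribonuclease that eosinophils and some macrophages make, was at 3.56 and 33.2 FPKM (log2 3.19), while the defining eosinophil genes Epx and Prg2 were at 0 and 0.0156 FPKM and 0 and 0.114 FPKM. The chemokines Ccl17 and Ccl24 were at 1.54 and 16.5 FPKM and 0.398 and 3.84 FPKM (log2 3.34 and 2.99). Ccl17 passed the minimum only through day 12, and Ccl24 was below it. Of 17 eosinophil and mast cell markers 6 were examined, and Ear2 and Hdc were the 2 higher, Hdc having passed the minimum only through day 12. The mast cell proteases Cpa3 and Mcpt4 were at 2.25 and 1.23 FPKM and 6.98 and 4.78 FPKM (log2 -0.82 and -0.54).

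Chemokines of monocytes and T cells were mixed. Of 12 listed, all 12 were examined, 4 were higher and 1 lower (median 0.49). Ccl8, a monocyte chemokine, was at 53.7, 60.2, 84.8, 87.0, 211 and 916 FPKM from vehicle to day 12 (log2 2.11), and Ccl3, Ccl4 and Ccl7 were at 4.38 and 10.7 FPKM, 12.7 and 27.7 FPKM and 68.9 and 139.7 FPKM. Ccl2, the main ligand of the monocyte receptor Ccr2, was at 47.5, 51.3, 111, 151, 67.9 and 77.7 FPKM (log2 0.19), so both later groups were below its day 3 value. The lower gene was Cxcl11 at 1.63 and 0.753 FPKM (log2 -1.02), and Cxcl9 and Cxcl10, which also bind the T cell chemokine receptor Cxcr3, were at 19.1 and 13.2 FPKM and 37.6 and 29.3 FPKM (log2 -0.53 and -0.36). Among 10 homing chemokines 5 were examined and all 5 were higher, 3 of them having passed the minimum only through day 12, with Ccl11, the eosinophil chemokine eotaxin, at 1.56 and 14.4 FPKM and the stromal Cxcl14 and Cxcl12 at 0.896 and 8.20 FPKM and 0.681 and 4.50 FPKM (log2 3.13, 3.06 and 2.56). The lymphoid chemokines Ccl19, Ccl21a, Ccl21b, Ccl21c and Cxcl13 were under 0.5 FPKM on both days.

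T cell markers lay above the median gene. Of 22 T cell markers, 9 were examined, 3 were higher and none lower, and the median was 0.36, or 0.65 from that of all examined genes. Day 12 was the highest of the 6 groups in 8 of the 9, beside 24.2% of all genes examined. The list's summed FPKM was 55.1 on day 6 and 89.0 on day 12. Cd3e, a T cell receptor subunit, was at 0.780, 0.687, 0.423, 0.748, 4.18 and 3.94 FPKM from vehicle to day 12 (log2 -0.08), and Cd8a, the cytotoxic T cell co-receptor, at 0.846, 0.916, 0.590, 0.834, 4.84 and 6.35 FPKM (log2 0.39). Both were several times higher in the day 6 and day 12 groups than in the 4 earlier ones and close to each other between them. The 3 higher genes were the adaptor Lat at 4.13 and 14.4 FPKM, the receptor subunit Cd3d at 5.17 and 13.3 FPKM and the interleukin-7 receptor Il7r at 2.23 and 5.53 FPKM (log2 1.78, 1.34 and 1.28). The naive and memory cell factor Tcf7 was at 1.66 and 1.10 FPKM (log2 -0.56).

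Cytotoxic genes did not move as 1 group. Gzmb and Prf1, the main killing proteins of T and natural killer (NK) cells, were at 1.11, 0.859, 1.47, 3.25, 6.13 and 2.90 FPKM and 0.632, 0.663, 0.640, 0.799, 2.93 and 2.03 FPKM from vehicle to day 12 (log2 -1.06 and -0.50). Gzmc, a granzyme of the same gene cluster, was at 0.835, 0.581, 1.44, 2.78, 6.37 and 15.1 FPKM (log2 1.24), and Gzmd, Gzme, Gzmf and Gzmg were at 1.36 and 2.97, 0.583 and 1.58, 0.870 and 1.93 and 0.194 and 1.67 FPKM on the 2 days. Gzmb was thus highest on day 6 and Gzmc highest on day 12. The Gzmc to Gzmg genes are near copies, so reads may have been split among them. Ifng, the cytokine of these cells, was at 1.13 and 1.88 FPKM (log2 0.69). Of 16 cytotoxic genes 6 were examined, with 1 higher (Gzmc) and 1 lower (Gzmb), beside 6.33% and 8.95% of all examined genes. The log2 difference of Gzmb was -0.87 with a pseudocount of 1 FPKM and -0.77 after recentring on the median gene, so that it was then no longer 2-fold lower.

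NK cell markers had a median of -0.09, and of 16 members 7 were examined, 1 was higher and none lower. Ncr1, the NK cell receptor NKp46, was at 0.0303, 0.0533, 0.0293, 0.183, 0.550 and 0.457 FPKM from vehicle to day 12 (log2 -0.22), and the higher gene, the lectin receptor Klre1, at 3.62 and 8.28 FPKM (log2 1.17). Klra4, 1 of a family of near copies, was at 3.98, 3.36, 12.7, 17.8, 6.86 and 4.09 FPKM (log2 -0.73). Immune checkpoint genes had a median of 0.23, with Lag3, an inhibitory receptor of activated T cells, at 3.21 and 6.97 FPKM (log2 1.10), Pdcd1, which encodes PD-1, at 5.24 and 5.76 FPKM (log2 0.13) and its ligand gene Cd274 at 9.13 and 15.3 FPKM (log2 0.74). Lag3 was the 1 higher gene of 7 examined. Of 8 regulatory T cell markers 2 were examined and neither was called. These were Tnfrsf18 at 3.00 and 4.21 FPKM and Tnfrsf4 at 3.03 and 3.89 FPKM (log2 0.48 and 0.35). The list's summed FPKM was 11.1 on day 6 and 11.7 on day 12. Below the minimum, the defining factor Foxp3 was at 0.0846, 0.0640, 0, 0.0298, 0.198 and 0.0347 FPKM from vehicle to day 12 (log2 -1.14) and the chemokine receptor Ccr8 at 0.620 and 0.144 FPKM (log2 -1.56). With a pseudocount of 1 FPKM these 2 differences were -0.21 and -0.50. B cell markers went both ways. The receptor gene Cd79a was at 0.844 and 0.371 FPKM and Ms4a1, which encodes CD20, was at 0.150 FPKM on day 6 and listed at 0 on day 12, whereas Cd79b, the partner of Cd79a, was at 2.12 and 3.06 FPKM (log2 0.51) and the inhibitory receptor gene Cd22 at 1.23 and 1.92 FPKM (log2 0.60). Of 15 B and plasma cell markers 3 were examined and none was called. Sdc1, which tumor cells also express, was the most abundant of them at 58.3 and 33.2 FPKM (log2 -0.81).

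Both antigen presentation lists had medians above that of all genes. Of 11 class II genes 7 were examined and 1 was higher, at a median of 0.48. H2-Ab1, H2-Eb1 and Cd74, which form and chaperone the class II molecule, were at 289.6 and 577, 183 and 366 and 534 and 1002 FPKM (log2 1.00, 1.00 and 0.91). H2-Eb1 lay just inside the 2-fold threshold and H2-Ab1 just outside it. The class II regulator Ciita was level at 1.97 and 1.96 FPKM (log2 -0.01). Of 16 class I genes, all examined, 1 was higher at a median of 0.35. This was H2-T23, a ligand of NK cell receptors, at 68.5 and 173 FPKM (log2 1.34), and B2m, the common light chain, was at 1002 and 932 FPKM (log2 -0.10). Dendritic cell markers had a median of 0.19, with 1 higher (Batf3, 6.99 and 23.9 FPKM) and 1 lower (Ly75, 3.30 and 1.01 FPKM) of 7 examined. The counts of these lists stand beside 6.33% higher and 8.95% lower of all examined genes. The type 1 dendritic cell genes Xcr1 and Clec9a were at 0.149 and 0.0643 FPKM and 0.236 and 0.362 FPKM.

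ISGs moved with the median gene. Of 37 type I ISGs, all examined, 1 was higher and 1 lower, and the list's median, -0.30, was -0.01 from that of all genes. Day 12 held the lowest of the 6 values in 13 of the 37 and the highest in 2, beside 55.8% and 24.2% of all genes. Isg15, a ubiquitin-like antiviral protein, was at 72.9, 55.4, 162, 163, 76.1 and 85.7 FPKM from vehicle to day 12 (log2 0.17), Mx1, an antiviral GTPase, at 4.16, 5.64, 6.94, 9.25, 9.00 and 5.62 FPKM (log2 -0.67) and Rsad2, the antiviral enzyme viperin, at 18.2, 17.3, 37.4, 40.7, 20.1 and 19.98 FPKM (log2 -0.01). Isg15 and Rsad2 had their highest values on days 2 and 3 and lay nearer to vehicle in both later groups. Mx1 and Oasl1 still stood above vehicle on day 6, Oasl1 at 7.59, 9.36, 14.5, 17.8, 14.3 and 8.75 FPKM (log2 -0.70). The 1 higher gene was Ifi27l2a, of the Ifi27 family, at 35.2, 27.3, 53.7, 70.1, 54.8 and 119 FPKM (log2 1.11), and the 1 lower gene Ifi44 at 7.76, 8.85, 18.8, 22.8, 9.31 and 4.34 FPKM (log2 -1.08). After recentring on the median gene no ISG was lower.

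Interferon-gamma-responsive genes lay below the median gene. Of 21 members, 19 were examined, none was higher and 3 were lower (2 after recentring on the median gene), with a median of -0.53, or -0.25 from all genes and -0.17 after recentring within length bins. Tgtp1 and Tgtp2, paired GTPases of near-identical sequence, were at 2.58 and 0.783 and 3.801 and 1.42 FPKM (log2 -1.60 and -1.36), and Cxcl11 was the third. Igtp, a GTPase that acts against intracellular pathogens, was at 18.7, 20.6, 34.6, 36.5, 32.3 and 21.2 FPKM from vehicle to day 12 (log2 -0.60). Igtp and Cxcl10 both stood on day 12 above vehicle and below day 6. Ido1, a tryptophan-degrading enzyme that was not examined because of its low level, went the other way at 0.338 and 2.91 FPKM (log2 2.78).

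**Figure D5:**
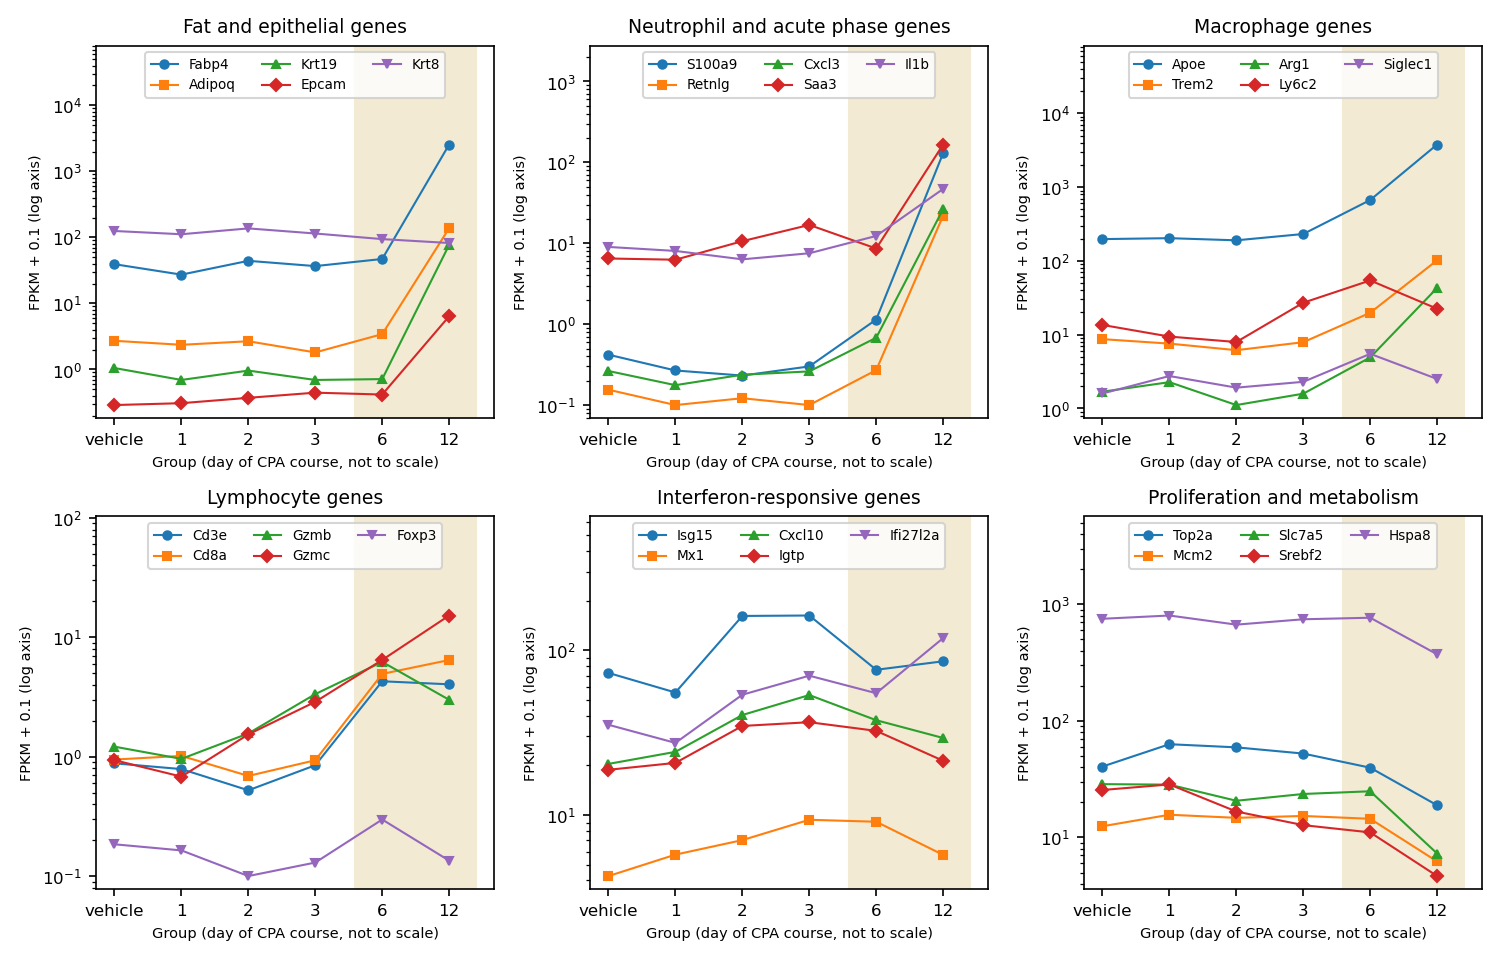
FPKM + 0.1 (vertical log axis) of 30 genes in the 6 groups (horizontal axis, not to scale), with 1 point per group and the day 6 and day 12 groups shaded. Krt19 and Fabp4 are flat through day 6 and high on day 12, Isg15 peaks on days 2 and 3, Gzmb, Ly6c2 and Siglec1 peak on day 6, and Top2a and Slc7a5 are lowest on day 12.

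Collagen genes lay on both sides of the median gene. Of 17 collagens, 15 were examined, 1 of the 15 having passed the minimum only through day 12. Of these 15, 5 were higher and 4 lower, and the list's median was -0.19. The chains of type I collagen, the main fibril of scar tissue, were at 20.7, 21.2, 12.9, 11.5, 31.5 and 67.7 FPKM for Col1a1 and 7.15, 9.84, 5.99, 4.74, 15.4 and 86.8 FPKM for Col1a2 from vehicle to day 12 (log2 1.10 and 2.49). Those of type VI collagen, a beaded filament, were at 101 and 36.1 FPKM for Col6a1, 65.6 and 29.2 FPKM for Col6a2 and 34.3 and 15.97 FPKM for Col6a3 (log2 -1.48, -1.17 and -1.10). Col6a1 was above 100 FPKM in each of the first 5 groups. Col5a2 and Col5a3, chains of type V collagen, were at 3.30 and 11.9 FPKM and 69.0 and 35.6 FPKM (log2 1.82 and -0.95), in opposite directions. After recentring within length bins 6 collagens were higher and 1, Col6a1, was lower, so 3 of the 4 lower calls were not made then.

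Fibroblast genes were higher. Of 23 listed, 17 were examined, 11 were higher and none lower, 5 of the 17 having passed only through day 12, with a median of 1.69. Dcn, the collagen-binding proteoglycan decorin, was at 2.45, 3.27, 2.83, 2.73, 6.19 and 45.2 FPKM from vehicle to day 12 (log2 2.85), and Clec3b, which encodes tetranectin, at 0.652, 0.714, 0.590, 0.425, 2.02 and 20.8 FPKM (log2 3.30). Lum, a second proteoglycan of the family, was at 1.76 and 10.9 FPKM (log2 2.56). Prelp, a matrix protein that E0771 tumors expressed from the start, was at 5.75 and 3.05 FPKM (log2 -0.89). Gsn, an actin-severing protein and the most abundant member on day 12, was at 164 and 324 FPKM (log2 0.98).

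Matrix proteases were higher in part. Of 16 metalloproteinase and inhibitor genes, 13 were examined, 5 were higher and none lower (median 0.94). Mmp3, stromelysin-1 of fibroblasts, was at 1.20, 1.44, 0.841, 1.27, 2.32 and 29.6 FPKM from vehicle to day 12 (log2 3.62), and Mmp12, the macrophage elastase, at 4.92, 5.57, 5.71, 9.37, 18.8 and 44.8 FPKM (log2 1.25). The value of Mmp12 was larger in each successive group, whereas Mmp3 stood out only on day 12. Of 16 complement genes 11 were examined and 7 were higher (median 1.14), with C3, the central component, at 14.5 and 37.2 FPKM and Cfp, which encodes properdin, at 61.9 and 182 FPKM (log2 1.36 and 1.55), while C2 was at 10.8 and 8.38 FPKM (log2 -0.36). Endothelial markers had a median of 0.58, and calls among them are to be read beside the 6.33% of all examined genes that were higher. Cldn5, the endothelial tight junction protein, and Esam, an endothelial adhesion molecule, were the 2 higher of 12 examined at 5.11 and 22.3 FPKM and 5.52 and 15.2 FPKM (log2 2.10 and 1.44), and Eng, a TGF-beta co-receptor, was at 19.2 and 10.7 FPKM (log2 -0.83). The count of higher endothelial markers was 5 after recentring within length bins. Among mural and lymphatic genes Tagln, a smooth muscle protein, was at 5.02 and 24.5 FPKM and Pdpn, podoplanin, at 2.60 and 8.86 FPKM (log2 2.26 and 1.73), while Prox1, which defines lymphatic endothelium, was listed at 0 on day 6 and at 0.0132 FPKM on day 12. Igf1, a growth factor of fibroblasts and macrophages, was at 1.29 and 6.38 FPKM (log2 2.22), and with Igfbp7 it was 1 of 2 higher genes among 14 examined of 21 growth factor genes. Igf1 passed the minimum only through day 12. Igfbp4, the most abundant of them, was at 166 and 173 FPKM (log2 0.06).

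Mitosis and DNA replication genes were the lists farthest below the median gene. Of 24 mitosis and spindle genes, all examined, none was higher and 14 were lower, at a median of -1.06, or -0.78 from all genes. After recentring on the median gene 3 were lower, and within length bins 4 were. All 24 had their lowest value of the 6 groups on day 12, as had 55.8% of all genes examined. Top2a, which untangles chromosomes, was at 40.5, 63.0, 59.2, 52.3, 39.5 and 18.8 FPKM from vehicle to day 12 (log2 -1.07). Ccnb1, the mitotic cyclin B1, was at 19.4, 29.6, 29.7, 32.2, 24.7 and 9.94 FPKM (log2 -1.31), and Kif20a, a kinesin of cytokinesis, at 9.26, 14.7, 16.3, 17.6, 11.7 and 4.35 FPKM (log2 -1.40). Prc1, which bundles the central spindle, was at 20.6 and 7.999 FPKM, Bub1b, a checkpoint kinase, at 9.02 and 3.65 FPKM and Plk1, a mitotic kinase, at 14.1 and 5.97 FPKM (log2 -1.35, -1.28 and -1.23). Birc5, which encodes survivin, differed least at 21.4 and 18.2 FPKM (log2 -0.24). Of these 7 genes only Top2a and Birc5 were below vehicle on day 6.

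DNA replication genes lay between the mitosis list and the median gene. Of 22 listed, all examined, none was higher and 9 were lower, with a median of -0.78. The 9 lower calls became 1 after recentring on the median gene. Of the 22, 20 had their lowest value on day 12, beside 55.8% of all genes examined. Pole, the catalytic subunit of leading-strand polymerase, was at 2.50 and 0.731 FPKM (log2 -1.65), Mcm2 and Mcm5 of the replicative helicase at 14.3 and 6.12 FPKM and 21.7 and 9.35 FPKM (log2 -1.22 and -1.21), and Cdt1, which loads that helicase, at 24.8 and 11.2 FPKM (log2 -1.14). Pcna, the sliding clamp, was level at 75.1 and 74.4 FPKM (log2 -0.01). Within length bins 1 replication gene was lower. E2f8, a repressor of the cell cycle that is itself made in S phase, and Troap, a spindle protein, were among the 14 largest differences downward at 9.62 and 2.55 FPKM and 7.85 and 2.33 FPKM (log2 -1.87 and -1.71).

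Promoters of mitosis genes are known to share 2 motifs, shown here because 14 of the 24 genes were called in 1 direction. The CCAAT box is bound by NF-Y, and the cell cycle homology region (CHR), TTTGAA or TTCGAA, by complexes that time transcription to G2 and mitosis. Read on both strands within 250 bases before the start, CCAAT occurred in 17 of the 20 mitosis promoters found and in 33.9% of all 32851 promoters, and a CHR in 8 of 20 and in 17.1%. Among 18 replication promoters 12 held CCAAT and 3 a CHR. The last 120 bases before the RefSeq start (GRCm38.p6) are printed 5′ to 3′ for 3 genes of the list, with CCAAT on the printed strand and CHR letters in capitals. The 2 motifs share no overlap by their letters, and Cdc20 alone of the 3 shows a CHR in this stretch.
Prc1 (chr7:80294331-80294450, plus strand): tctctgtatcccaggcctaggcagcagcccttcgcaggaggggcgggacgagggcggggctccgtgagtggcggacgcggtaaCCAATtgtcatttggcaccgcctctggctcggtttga
Ccnb2 (chr9:70421555-70421674, minus strand): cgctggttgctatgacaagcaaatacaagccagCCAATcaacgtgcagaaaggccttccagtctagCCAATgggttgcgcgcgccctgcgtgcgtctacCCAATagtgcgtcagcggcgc
Cdc20 (chr4:118437344-118437463, minus strand): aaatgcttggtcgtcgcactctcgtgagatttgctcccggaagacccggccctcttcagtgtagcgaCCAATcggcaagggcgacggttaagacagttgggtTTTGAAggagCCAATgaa
Ccnb2, which encodes cyclin B2, was at 19.9 and 10.9 FPKM (log2 -0.87) and Cdc20, the activator of the anaphase-promoting complex, at 34.0 and 19.0 FPKM (log2 -0.84), both lower in value but short of 2-fold. These letters are a description of the windows and not of binding.

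Calls in the lists of growth and stress genes are to be read beside the 8.95% of all examined genes that were lower and the 6.33% that were higher. Myc, a driver of growth, was at 91.0, 96.4, 97.7, 108, 78.6 and 33.4 FPKM from vehicle to day 12 (log2 -1.23), the 1 lower gene of 14 immediate early genes examined, whereas Egr1 and Egr2 were the 2 higher at 1.13 and 3.40 FPKM and 0.866 and 3.90 FPKM (log2 1.51 and 2.05), both having passed the minimum only through day 12. After recentring on the median gene neither the immediate early nor the heat shock list had a lower gene. Integrated stress response genes had a median of -0.40, with 3 of 13 examined lower. These were Slc7a5, a leucine transporter, at 28.6, 28.3, 20.5, 23.5, 24.8 and 7.18 FPKM from vehicle to day 12, Psat1, of serine synthesis, at 37.2 and 14.1 FPKM and Chac1, which degrades glutathione, at 2.09 and 0.717 FPKM (log2 -1.77, -1.39 and -1.42). All 3 remained lower after recentring on the median gene and within length bins. Hmox1, a heme-degrading enzyme of macrophages and stressed cells, was at 62.0 and 122 FPKM (log2 0.98). Of 12 heat shock genes, all examined, Hspa8, the constitutive chaperone, was lower at 751, 801, 669, 744, 767 and 372 FPKM (log2 -1.04) and Hspb1 higher at 2.70 and 13.8 FPKM (log2 2.31). The heat-inducible Hspa1b was at 16.8, 7.85, 4.71, 3.84, 3.22 and 3.37 FPKM, highest in vehicle.

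Among p53 targets, which DNA damage induces, 19 of 22 were examined and none was called, with a median of 0.17. Cdkn1a, the p21 cell cycle inhibitor, was at 35.1, 42.6, 51.3, 56.98, 51.1 and 66.7 FPKM from vehicle to day 12 (log2 0.38), Bax, an apoptosis effector, at 82.5 and 109 FPKM (log2 0.40) and the death receptor gene Tnfrsf10b at 4.06 and 1.99 FPKM (log2 -0.99). Trp53inp1 was at 0.501, 1.01, 0.782, 0.886, 1.53 and 2.55 FPKM over the groups (log2 0.70).

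Glycolysis and hypoxia lists had medians near that of all genes. Glycolysis genes had a median of -0.31, and of 14 examined only Hk1, a hexokinase, was lower, at 18.6 and 7.91 FPKM (log2 -1.23). Gapdh, often used as a reference, was at 1231, 1217, 997, 1109, 1181 and 637 FPKM from vehicle to day 12 (log2 -0.89). Hypoxia targets had a median of -0.33, with 1 of 12 higher, the mitophagy receptor Bnip3 at 34.9, 26.5, 24.7, 20.7, 18.7 and 46.2 FPKM (log2 1.30). Adm and Slc16a3 were at 22.8 and 15.4 FPKM and 59.9 and 34.5 FPKM (log2 -0.56 and -0.79), so members of this list diverged. Circadian clock genes had a median of -0.26 and no call among 9 examined, Ciart and Per1, both repressors of the clock, being farthest down at 1.74 and 0.867 FPKM and 8.79 and 4.64 FPKM (log2 -0.93 and -0.91). Of 6 nuclear-retained RNAs 3 were examined and none was called, the abundant Malat1 being at 113 and 172 FPKM (log2 0.60).

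The reference genes spread widely. Of 12 housekeeping genes, all examined, the median was -0.31, near that of all genes, but Polr2a, the large subunit of RNA polymerase II, was lower at 14.8, 22.8, 15.0, 14.5, 16.8 and 5.77 FPKM from vehicle to day 12 (log2 -1.53), while Hprt and Gusb were at 38.0 and 63.3 FPKM and 24.2 and 40.2 FPKM (log2 0.74 and 0.73). The longest annotated transcript is 6740 bases for Polr2a and 1289 bases for Hprt, in the longest and the shortest bins of genes. Yet Rplp0, at 1358 bases, was at log2 -0.44 and Sdha, at 2900 bases, at log2 0.44. The part of transcript length in this spread was not tested. The direction of a common shift would differ with the reference gene chosen.

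The 14 largest differences downward among genes at 5 FPKM or more lay in a narrow band, log2 -1.92 to -1.70. Both rows of the Raet1 family among them encode stress ligands of the NK cell receptor NKG2D, with RAET1C at 12.6, 18.0, 13.7, 16.01, 12.7 and 3.28 FPKM from vehicle to day 12 and Raet1e at 9.36 and 2.67 FPKM (log2 -1.78). In mm9 the row of RAET1C (chr10:21893707-22093945) overlaps that of Raet1e (chr10:21893326-21903720), so the 2 rows may not be separate measurements. Nptx1, a secreted pentraxin, was at 15.1, 20.4, 13.8, 12.4, 7.05 and 1.85 FPKM, which put day 6 below the earlier groups as well (log2 -1.88). L1cam, a neural adhesion molecule, and F2rl1, a protease-activated receptor, were at 6.51 and 1.71 FPKM and 6.33 and 1.77 FPKM (log2 -1.87 and -1.78). Rin1, the arginine methyltransferase Carm1, the splicing factor Sf3a2, the Hippo pathway gene Mob1a and the zinc finger gene Wiz were also in the set, as were Slc7a5, E2f8 and Troap. After recentring within length bins the 13 of these 14 with an annotated length were still more than 2-fold lower. This outcome was fixed by their choice as the largest differences, since the lowest bin median was -0.50. It therefore says nothing on the part of transcript length.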

How the data were processed

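PolyA-selected, stranded RNA libraries were made from pools of tumor RNA, 2 pools per group. Per the submitters' processing notes TopHat2, featureCounts, edgeR and the build mm9 were used (no versions are given in the sources used here). The authors deposited 1 FPKM value per gene and group. How the 2 pools were combined was not settled; 2 steps in the low values of each group would fit a mean of the pools. The authors' own ratio, fold change and p-value columns were not used.

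Here log2((day 12 + 0.1)/(day 6 + 0.1)) was computed for all 24197 genes with Python 3.11.15, numpy 2.4.6 and pandas 2.3.3, and figures were drawn with matplotlib 3.10.9. Genes with a mean of at least 1 FPKM over the 6 groups were examined, and 2-fold differences were called. The script was tested on simulated data. With 1 value per group there was no test, SD or n. Of the symbols, 22846 were current, 1211 were synonyms, 140 matched none, and 27 had been turned into dates. In 69 sets, 158 rows shared their values. The listed genes Ahsp and Ly6g were not found. Transcript lengths came from GENCODE vM21, and promoters from RefSeq (GRCm38.p6).

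Named were the 14 largest differences each way among genes at 5 FPKM or more, without predicted genes and small RNAs. Also named were the 5 largest, the most abundant and the most opposed members of each list, any member of lists of 12 or fewer, and genes that had been assayed by qPCR in the study. Alas2, Birc5, C1qa, C3, Camp, Ccnb2, Ccr2, Cd3e, Cd79a, Cdc20, Cdkn1a, Cldn3, Clec9a, Col1a1, Col5a3, Col6a1, Col6a2, Col6a3, Csf3r, Csn2, Ctsd, Cxcr2, Cxcr3, Dgat2, Elane, Epx, Hmgcs1, Hp, Ifi27, Isg15, Krt14, Lep, Mmp12, Mpo, Ms4a1, Ngp, Nos2, Padi4, Plac9b, Pparg, Prg2, Scd2, Tnf, Tnnt3, Top2a, Wap and Xcr1 were named after their values were seen. The comparison and lists were chosen with earlier results of these data known. Other pseudocounts, minimums, scalings and thresholds were tried. Some genes that the rule names are not reported here.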

Additional observations from a re-analysis of the deposited data

How the results depend on the processing

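Each choice was varied alone. The count of genes at least 2-fold higher, 674, became 2055 with no minimum, 287 with a minimum mean of 5 FPKM, 1049 after recentring on the median gene and 226 at 4-fold. The count of lower genes, 953, became 416 with a pseudocount of 1 FPKM, 484 with the minimum of 5 FPKM, 361 after recentring on the median gene and 45 at 4-fold. With recentring within length bins, chosen after seeing the data, 381 genes were lower and 886 higher. Both counts stayed within 1.5 times of the first values with a pseudocount of 0.01 FPKM, with shared rows counted once, with totals equalized without the fat and erythroid lists, and with a minimum mean of 1 FPKM over days 6 and 12, also chosen after seeing the data. Over all alternatives, 405 list medians moved by less than 1.5-fold and 31 by more, 10 of them with the pseudocount of 1 FPKM. For values of named genes these numbers were 3037 and 109, the 109 being 80 with the pseudocount of 1 FPKM and 29 with that of 0.01 FPKM. The other settings could not move a named gene. Minimums and the counting of shared rows leave its value as it was, and recentring and rescaling shift it by less than 1.5-fold. No setting could reverse the sign of a value called at 2-fold, so these counts are no measure of stability. The causes were not tested. The white adipocyte median was 3.45, the neutrophil median 1.08 and the mammary epithelial median 1.04 with the pseudocount of 1 FPKM.

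No paired analysis was possible because the table gives 1 value per group, and for the same reason no pool could be left out. The steps in the low values of the day 12 column were 1.91-fold apart.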
